A study of Mus musculus with 365 samples.

Results

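The cytosolic ribosomal protein genes are the genes for the proteins that, with ribosomal RNA, build the ribosome of the cytoplasm. They were chosen by name: symbols of Rpl or Rps with a number and at most a short ending (a, l, x, y or a letter with a digit, as in Rps3a1), plus Rplp0, Rplp1, Rplp2 and Rpsa, without pseudogenes, the Rps6k kinases and mitochondrial ribosomal proteins. This gave 84 of the 23427 genes in the count table, with 52 large-subunit and 32 small-subunit members. Ribosomal protein genes outside that pattern (Fau, and copies such as Rps27rt and Rpl37rt) were left out.

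The genes were read in single progenitors from bone marrow of the femur, all from C57BL/6 mice with a Flt3 ligand transgene (Flt3Ltg), a growth factor for early lymphoid and dendritic progenitors. They belong to the EPLM, an early progenitor compartment that can form both lymphoid and myeloid cells. The 152 Ly6D+ cells came from chips 4, 5 and 6 (40, 60 and 52 cells), and the 213 TN (triple negative) cells came from chips 1, 2 and 3 (75, 69 and 69 cells). Each label names 2 pooled mice, and the labels tie no mouse to a chip. No source used here gives the promoter of the transgene or the age of the mice. Each chip held 1 population only, so chip and population cannot be told apart, and p-values below rest on chip-to-chip spread, which may be technical. Ly6d had reads in 145 Ly6D+ and 45 TN cells, and Ptprc, the leukocyte marker CD45, in 143 Ly6D+ and 185 TN cells. The erythroid genes Klf1, Gata1 and Hbb-bs, T cell Cd3e and NK cell Ncr1 had reads in none of either. Other genes of these lineages did have reads, so the named ones do not stand for them all. Enough reads for the test between populations were found for 4 of 12 listed erythroid genes and 8 of 15 listed T and NK genes. Cells held between 267852 and 1854600 gene reads, and cDNA was full-length, with no molecular identifiers.

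Ribosomal protein genes are transcribed at high rates from short promoters, and their mRNAs begin with a run of pyrimidines, the 5′ terminal oligopyrimidine (TOP) motif, through which mTOR signalling sets their translation. Each ribosome takes a single copy of nearly every protein, and dividing cells must make new ribosomes. The genes have many processed pseudogenes in mammalian genomes, so short reads can match several places. Some members have a paralog, and mutations of single members, such as RPS19 in Diamond-Blackfan anaemia, affect blood formation in humans.

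Promoter windows from RefSeq (assembly GRCm38.p6, from 250 bases before to 50 after each annotated start) were matched by Entrez identifier for 64 of the 84 members. The letter motifs were searched on both strands, and runs of pyrimidines on the strand of the gene only. The letters CCGGAAGT, which GABP and other ETS factors bind, were present for 12 members, or 18.8%, against 5.75% of 17805 genes with a window. TCTCGCGA, an element common in such promoters, was present for 11 members (17.2%, against 1.59% of all genes). AAGATGGC, bound by YY1, was present for 6 members (9.38%, against 3.62%), and a run of at least 6 pyrimidines within 15 bases of the start for 39 members (60.9%, against 32.5%). The MYC E-box CACGTG was at 9.38% of members and 9.18% of all genes, the GC box GGGCGG at 60.9% and 49.8%, and TATAAA at 12.5% and 14.4%. The GC box can overlap other GC-rich motifs, and a match is a description of letters only. The 80 bases before an annotated start are shown for 6 members, with the letter motifs named above in capitals (runs of pyrimidines are not marked), and the labels name only matches inside the bases shown. Elsewhere in their windows, some at other annotated starts, Rpl22 also held YY1 and TATA letters, Rps27l ETS letters, Rpl22l1 a GC box, and Rps19 a GC box and an E-box. Rps27 and Rps27l, and Rpl22 and Rpl22l1, are paralog pairs compared below. Rps25 and Rps19 show the 2 letter motifs whose share among members was the highest multiple of that among all genes.
Rps27 (chr3:90213649-90213728, minus strand, YY1 letters): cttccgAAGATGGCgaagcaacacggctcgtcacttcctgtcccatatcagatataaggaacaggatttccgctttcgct
Rps27l (chr9:66946006-66946085, plus strand, GC box): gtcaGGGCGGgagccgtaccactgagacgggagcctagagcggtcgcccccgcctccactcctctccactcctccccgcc
Rpl22 (chr4:152325646-152325725, plus strand, none of the letters in this stretch): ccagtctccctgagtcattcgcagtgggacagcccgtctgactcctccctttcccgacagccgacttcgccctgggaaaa
Rpl22l1 (chr3:28805428-28805507, plus strand, TATA letters on both strands): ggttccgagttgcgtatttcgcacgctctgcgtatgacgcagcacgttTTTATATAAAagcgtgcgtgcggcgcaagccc
Rps25 (chr9:44407634-44407713, plus strand, ETS letters): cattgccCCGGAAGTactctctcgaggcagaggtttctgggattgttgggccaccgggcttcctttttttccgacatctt
Rps19 (chr7:24884512-24884591, plus strand, TCTCGCGA): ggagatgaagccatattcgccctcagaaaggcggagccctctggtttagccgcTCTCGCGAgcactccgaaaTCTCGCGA

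The ribosomal protein genes took a few percent of the gene reads of a cell, and the 2 populations overlapped in that share. The mean share over cells was 3.69, 3.48 and 4.24% on Ly6D+ chips 4, 5 and 6, against 3.76, 3.26 and 3.47% on TN chips 1, 2 and 3. Ly6D+ chip 6 was the highest and TN chip 2 the lowest, and the other 4 chips lay between 3.47 and 3.76%. The means were 3.81 ± 0.39% in Ly6D+ and 3.50 ± 0.25% in TN cells (SD, n = 3 chips each), a difference of 0.309 percentage points that is smaller than the SD of the Ly6D+ chips. Cells of 1 chip varied far more, with a mean SD over cells of 0.837 percentage points in Ly6D+ and 0.894 in TN. The lowest cell, on Ly6D+ chip 5, held 1.04% and the highest, on TN chip 2, held 6.75%. Both subunits showed the same order of the populations, with 2.13 ± 0.19% in Ly6D+ and 1.97 ± 0.16% in TN cells for the large subunit, and 1.67 ± 0.21% in Ly6D+ and 1.53 ± 0.095% in TN cells for the small subunit. Because the mRNAs are short, their share of reads divided by gene length was larger, at 9.79, 9.52 and 11.1% on Ly6D+ chips 4, 5 and 6, against 9.62, 8.57 and 8.82% on TN chips 1, 2 and 3, and these overlapped too. The 11 copies and pseudogenes with reads that the choice by name left out took 0.155 ± 0.013% of reads in Ly6D+ and 0.141 ± 0.011% in TN cells.

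**Figure D1:**
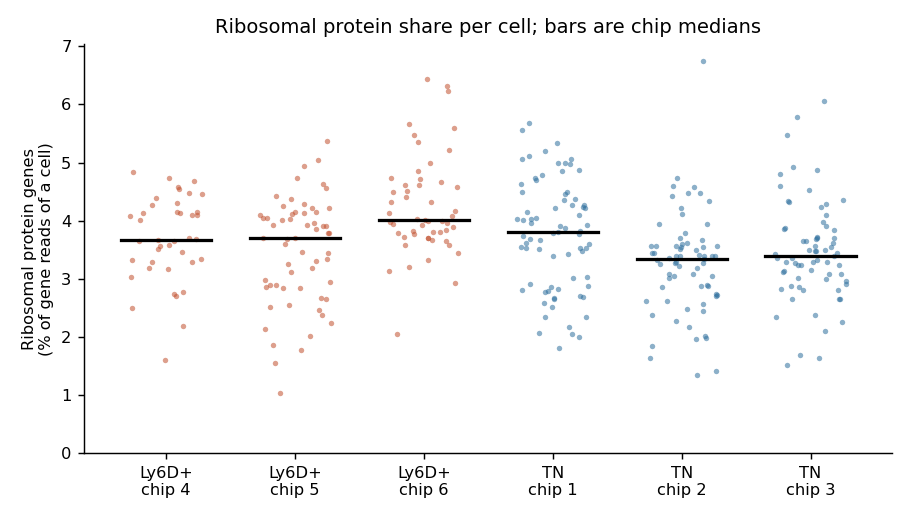
Percent of the gene reads of a cell on ribosomal protein genes (y axis) for each cell (points) by chip (x axis), with black bars at the chip medians. The cells of each chip spread widely, between 1.04 and 6.75% over all chips, and Ly6D+ chip 6 has the highest median.

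Levels of the members were compared per length, as CPM, the reads of a gene scaled to the same total in every cell, per kilobase (kb) of the deposited gene length. Among the highest was Rpl4, at 2579 ± 248 CPM per kb (mean and SD over all 6 chips). Rps14, whose loss underlies the anaemia of human 5q- syndrome, stood at 2372 ± 257, and further high members were Rpl32 (2152), Rps9 (1963), Rpl8 (1461) and Rplp0, the base of the ribosomal stalk (1317). Neighbours among those named differed by less than the larger of their SDs over chips, apart from Rps9 and Rpl8. Long and high, Rpl4 alone took 10.1% of all reads on members.

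The low end lay far below. Rpl10l and Rpl39l, paralogs known from testis, had a read in 0 cells, which allows a share of cells with a read of up to 0.822% (counting error only, and not a limit on cells that express the gene), and Rpl3l, the paralog of Rpl3 known from heart and skeletal muscle, had reads in 14 cells. Rps2, a core small-subunit protein, had only 429 reads in all (1.34 ± 0.60 CPM per kb), and Rpl21 (6.42), Rpl29 (9.23), Rpl7a (14.1) and Rpl17 (29.8) were also low. Sequence shared with other genes was counted for each member. Of the 50-base stretches in the longest GENCODE transcript of a member, a median of 47.4% also occurred in transcripts of other genes. Such a transcript was found for 83 members, and the median is over the 81 of them with reads. Rps2 shared such stretches with 71 other genes, Rpl7a with 123, Rpl21 and Rpl29 with 82 each and Rpl17 with 51, against 1 each for Rpl4, Rps9 and Rpl8, 2 for Rps14, 8 for Rplp0 and 10 for Rpl32. The match with the level was loose: Rps20 (1212 CPM per kb) shared stretches with 50 other genes and Rps16 (691) with 89, both chosen after their values were seen, and the low Rpl3l with 0. Across 81 members, the Spearman correlation of the level with the number of genes that share sequence was -0.48, and with the shared percent -0.15, as a description across genes that are not independent. No source used here says how reads with several matches were counted, and the part of this in the low values was not tested. Levels of members that share sequence are therefore uncertain.

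**Figure D2:**
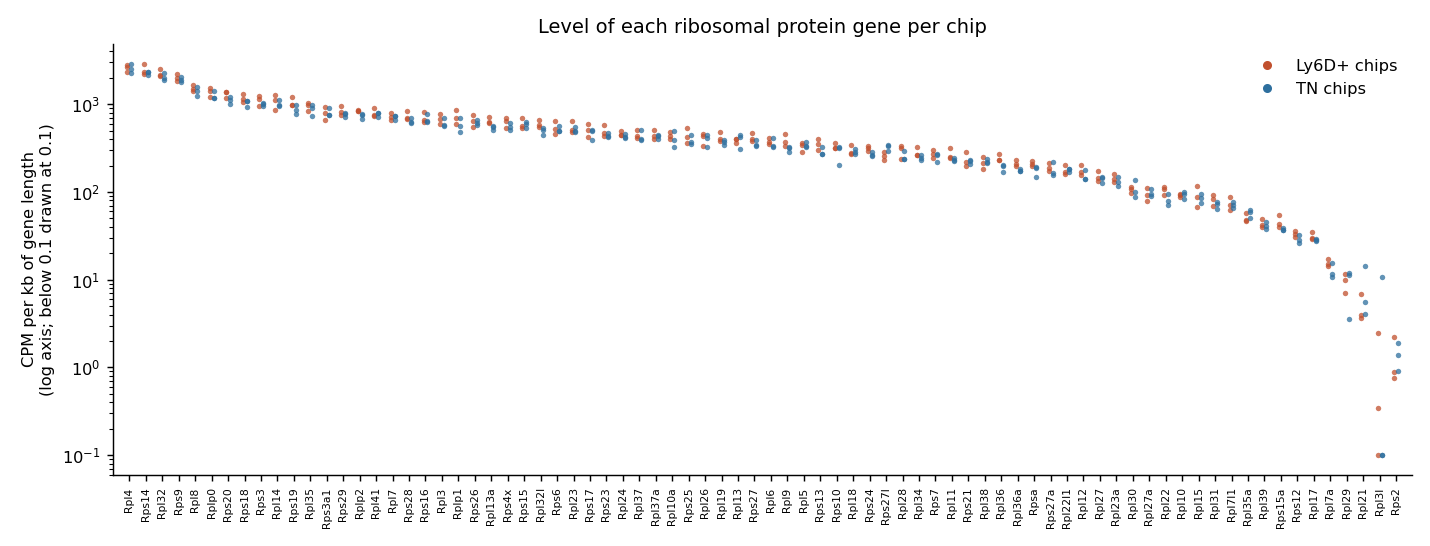
CPM per kb of gene length (y axis, log scale) of members with a read, in order of their mean, with 1 point per chip. Ly6D+ and TN chips lie close together for nearly all genes shown, and the steep end at the right holds Rpl7a, Rpl29, Rpl21, Rpl3l and Rps2.

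The paralogs with reads were expressed beside their parents. Rps27l, a p53 target in human cells, stood at 291 ± 44 CPM per kb beside Rps27 at 389 ± 51, and Rpl22l1 at 177 ± 15 beside Rpl22, which is needed for T cell development in mice, at 93.5 ± 16. Rpl7l1, a nucleolar relative, stood at 72.4 ± 9.2 beside Rpl7 at 719 ± 50. In this compartment Rpl22l1 was thus above Rpl22 per length on each of the 6 chips. The deposited lengths were 477 bases for Rpl22l1 and 2497 for Rpl22, and without division by length the order was reversed. Rpl22 averaged 271 CPM on Ly6D+ and 205 CPM on TN chips, and Rpl22l1 85.8 CPM on Ly6D+ and 86.6 CPM on TN chips. Rpl22l1 shares 65.6% of its 50-base stretches with 4 other genes, and Rpl22 5.20%, also with 4.

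Between the populations, no ribosomal protein gene passed the test. On read counts summed per chip, edgeR's quasi-likelihood test called 24 of 11797 genes (0.203%) at a Benjamini-Hochberg adjusted p under 0.05, among them the lymphoid Ly6d and Dntt, higher in Ly6D+, and the myeloid Mpo and dendritic Cst3, lower. Of the 82 members tested, edgeR called 0 and found 0 at an unadjusted p under 0.05, against 988 genes of all (8.38%). DESeq2 called 0 members and 399 genes (3.38%), and limma-trend 0 members and 326 genes (2.76%). Rpl10l and Rpl39l, with no reads, were not tested. In simulated chip sums edgeR recovered 0.667% of 2-fold changes over all genes, so a lack of calls alone says little about changes of that size. For 71 of the 82 members the 95% interval of the log2 fold change lay wholly within 1 either way.

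The fitted differences were small and mostly of 1 sign. The median log2 fold change of Ly6D+ over TN was 0.15 for the members and 0.014 for all genes tested, and 75 members were positive and 7 negative. The large subunit had a median of 0.14 (50 members) and the small subunit 0.19 (32 members). For 23 members all 3 Ly6D+ chips lay above all 3 TN chips, where 7.64% of all genes did so, and for 1 member, Rps27l, all lay below, where 7.75% of all genes did. These members are not separate pieces of evidence, since they move together from chip to chip: the median member stood 0.22 above its own mean over chips on Ly6D+ chip 6 and 0.19 below on TN chip 2 (log2). Without Ly6D+ chip 6 the median log2 fold change was 0.056, with 59 members positive and 23 negative, and without TN chip 2 it was 0.099.

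Rpl22 had 282, 250.4 and 279 CPM on Ly6D+ chips 4, 5 and 6, against 225, 198 and 193 CPM on TN chips 1, 2 and 3 (log2 fold change 0.40, 95% interval -0.071 to 0.87). The groups did not overlap, but the interval includes 0. Rplp1, which with Rplp2 forms the acidic stalk, had 347, 289 and 391 CPM in Ly6D+, against 302, 252 and 234 CPM in TN, and its groups overlapped (0.38, -0.11 to 0.88). Rpl7a also had a large positive value (0.40), at low counts and with a wide interval (-1.27 to 2.06), and Rpl36 stood at 0.37 (-0.28 to 1.01).

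At the negative end, Rps27l had 138, 118 and 121 CPM on the Ly6D+ chips, against 147, 138 and 172 CPM on the TN chips (log2 fold change -0.28, 95% interval -0.84 to 0.28). Its highest Ly6D+ chip and lowest TN chip were nearly level. Its parent Rps27 had 223, 241 and 267 CPM in Ly6D+, against 205, 180.0 and 204 CPM in TN (0.31, -0.18 to 0.79). Rpl3l (-1.78) and Rpl21 (-0.77) had larger negative values, carried by single TN chips: Rpl3l had 0.77, 3.21 and 0 CPM in Ly6D+, against 0.046, 13.7 and 0.021 CPM in TN, and Rpl21 had 7.27, 13.1 and 6.53 CPM in Ly6D+, against 26.9, 11.7 and 7.43 CPM in TN. Without TN chip 2 Rpl3l was at 5.20, and on chip means of log2(CPM+1) limma-trend put Rpl3l at 0.078 and Rpl21 at 0.35. Rpl35a (-0.16), Rps2 (-0.10), Rpl5 (-0.04) and Rpl22l1 (-0.012) were the other negative members.

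Other members chosen for their roles lay in between. Rps19 averaged 666 ± 69 CPM on Ly6D+ chips and 542 ± 66 CPM on TN chips (log2 fold change 0.30, 95% interval -0.12 to 0.72). Rpsa, also known as the laminin receptor, had a value of 0.27 (-0.17 to 0.70), Rpl11, which with Rpl5 binds Mdm2 in nucleolar stress, 0.24 (-0.30 to 0.77), and Rplp2 0.23 (-0.21 to 0.66). Rplp0 (0.19), Rps14 (0.19) and Rps6, the target of S6 kinase (0.12), were lower still. Rpl4, named for its high level, was at 0.013 (-0.31 to 0.33).

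**Figure D3:**
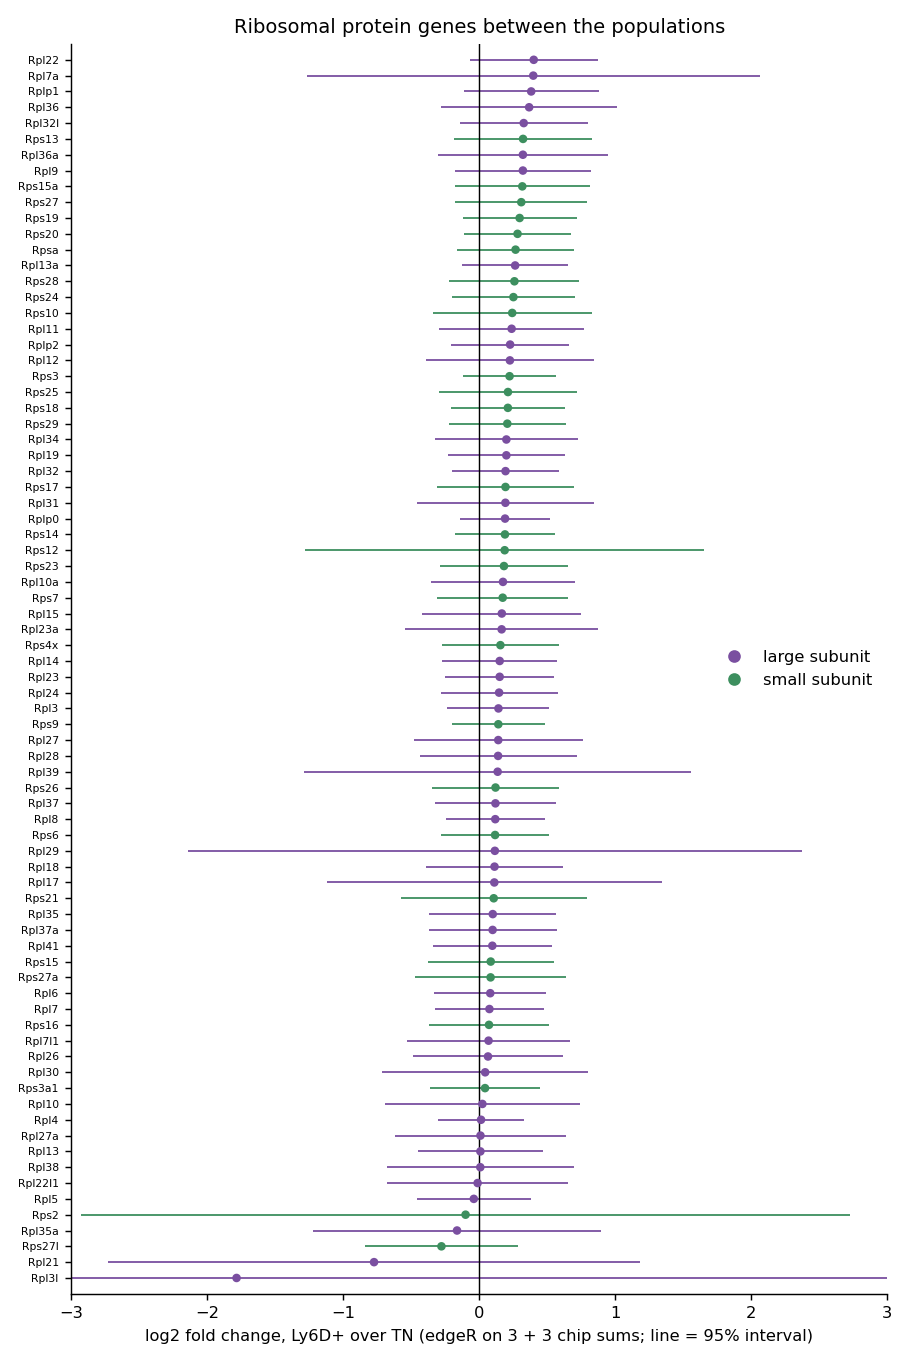
log2 fold change of Ly6D+ over TN (x axis) for members tested (rows), with 95% intervals from edgeR, and the axis ends at 3 either way, inside the interval of Rpl3l. Most points lie just right of 0 and every interval shown includes 0.

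Nor was any listed gene of protein synthesis outside the set called. edgeR called 0 of 10 translation elongation, 0 of 30 initiation, 0 of 40 ribosome biogenesis and 0 of 78 mitochondrial ribosomal protein genes, with median log2 fold changes of 0.058, -0.0051, -0.081 and -0.11. edgeR also called 0 of the 20 G1/S and 0 of the 20 G2/M genes (medians -0.17 and -0.28). At an unadjusted p under 0.05 it found 1 elongation, 0 initiation, 2 biogenesis, 0 mitochondrial ribosomal, 2 G1/S and 0 G2/M genes, and DESeq2 and limma-trend called 0 in each of these 6 lists.

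From cell to cell, the ribosomal protein genes were among the steadier genes and varied together. Among the 6878 genes with a read in at least 20% of cells, the median coefficient of variation of CPM within a chip was 258%, and for the 81 members among them it was 50.2%. Low genes vary more by counting alone, and levels were not matched in this comparison. Rpl41 (35.5%) and Rps19 (36.2%) were among the lowest members, chosen after their values were seen. The mean Spearman correlation between pairs of the 80 members detected in at least 50% of cells was 0.24, 0.27 and 0.20 on Ly6D+ chips 4, 5 and 6, and 0.28, 0.25 and 0.21 on TN chips 1, 2 and 3. The same over 2832 genes ranged from 0.019 to 0.099. Given the number of genes detected and the total reads of each cell, the members' values ranged from 0.21 to 0.28 and those of all genes from 0.0029 to 0.013. The cells of a chip share a library preparation, and CPM values in a cell share its depth. The shares of the large and the small subunit correlated at 0.80 ± 0.03 over the cells of Ly6D+ chips and 0.82 ± 0.05 over those of TN chips.

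Single members followed the rest. Rpl3l, Rpl10l and Rpl39l had too few cells with a read to enter. For 78 of the 81 other members the correlation with the share of the other members was positive on all 6 chips, where 10.6% of all genes had a positive and 2.78% a negative correlation with the member share on all 6. Rpl14 was highest, at a mean of 0.64, and Rps14 (0.60) and Rps19 (0.58) were close to it. The exceptions were Rps2, Rpl7l1 and Rpl22l1. Rpl22l1 had correlations of -0.10, 0.25 and 0.24 on Ly6D+ chips 4, 5 and 6, and 0.49, 0.57 and 0.11 on TN chips 1, 2 and 3, whereas Rpl22 lay between 0.29 and 0.41 on all 6. Rps2 (mean 0.079) is the member with the lowest level among those with reads, and Rpl7l1 had a mean of 0.075.

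Across cells, the ribosomal protein share was lower where G2/M genes were higher. The G2/M list holds genes of mitosis, and its score is the mean log2(CPM+1) of its 20 genes. The correlation was -0.30, -0.17 and -0.23 on Ly6D+ chips 4, 5 and 6, and -0.016, -0.14 and -0.23 on TN chips 1, 2 and 3, so that it was negative on 6 of 6 chips, though hardly so on TN chip 1. Given genes detected and total reads it was -0.27 ± 0.02 in Ly6D+ and -0.36 ± 0.05 in TN cells (SD over 3 chips). The correlation with G1/S genes, which act in DNA replication, was -0.14 ± 0.21 in Ly6D+ and 0.093 ± 0.14 in TN cells, with 3 chips of either sign. Given genes detected and total reads it was negative on 6 of 6 chips, at -0.16 ± 0.17 in Ly6D+ and -0.11 ± 0.07 in TN cells. The correlation of the share with total reads was 0.32, 0.014 and 0.13 on Ly6D+ chips 4, 5 and 6, and 0.18, 0.15 and 0.20 on TN chips 1, 2 and 3, and without cells under 1500 detected genes it was -0.12 on Ly6D+ chip 5. Of the single division genes, 11 of the 19 G2/M genes scanned were negative with the share on every chip and 0 positive, and of 19 G1/S genes 1 was negative and 0 positive. Mki67 (mean over 6 chips -0.23), Nusap1 (-0.23) and Ube2c (-0.23), all active in mitosis, were among the negative ones, and Pcna, of DNA replication, was mixed.

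The members differed among themselves in this relation. Against the G2/M score, 14 of 81 members were negative on all 6 chips, where 0.787% of all genes were, and 4 were positive, where 37.3% of all genes were. The median correlation was -0.067 for the members and 0.13 for all genes. Given genes detected and total reads, a setting added after the data were seen, 53 members were negative (5.39% of all genes) and 0 positive (6.87% of all genes). Against the G1/S score, 7 members were positive (39.5% of all genes) and 1 was negative (0.437% of all genes), and given detection and reads 0 were positive (5.96%) and 9 negative (4.11%). Members share reads, cells and the sign of the common share, so these counts are not independent.

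Rps27 was the negative member for G1/S and had the lowest mean for both lists. Its correlation with the G2/M score was -0.20, -0.40 and -0.52 on Ly6D+ chips 4, 5 and 6, and -0.23, -0.39 and -0.40 on TN chips 1, 2 and 3. With G1/S it was -0.37, -0.24 and -0.55 on the Ly6D+ chips, and -0.26, -0.41 and -0.43 on the TN chips. All 12 values were negative, and given genes detected and total reads the means over 6 chips were -0.23 and -0.25. Rps27rt, a near copy outside the set, had means of -0.36 and -0.39, and the reads of the 2 cannot be told apart where their sequence is the same.

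Its paralog Rps27l had the opposite sign throughout. With G2/M it had 0.14, 0.18 and 0.22 on the Ly6D+ chips, and 0.29, 0.17 and 0.24 on the TN chips, and with G1/S 0.10, 0.46 and 0.42 on the Ly6D+ chips, and 0.31, 0.33 and 0.31 on the TN chips. The medians of all genes were 0.13 for G2/M and 0.15 for G1/S, and given genes detected and total reads the means of Rps27l were -0.013 for G2/M and 0.12 for G1/S. Both paralogs correlated positively with the share of the other members on all 6 chips, at means of 0.35 for Rps27 and 0.24 for Rps27l. The other members positive with G2/M on all chips were Rpl29 (0.25), Rpl21 (0.21) and Rpl22l1 (0.17), and after Rps27 the lowest were Rps14 (-0.26), Rps19 (-0.24), Rpl32 (-0.24) and its near copy Rpl32l (-0.23).

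**Figure D4:**
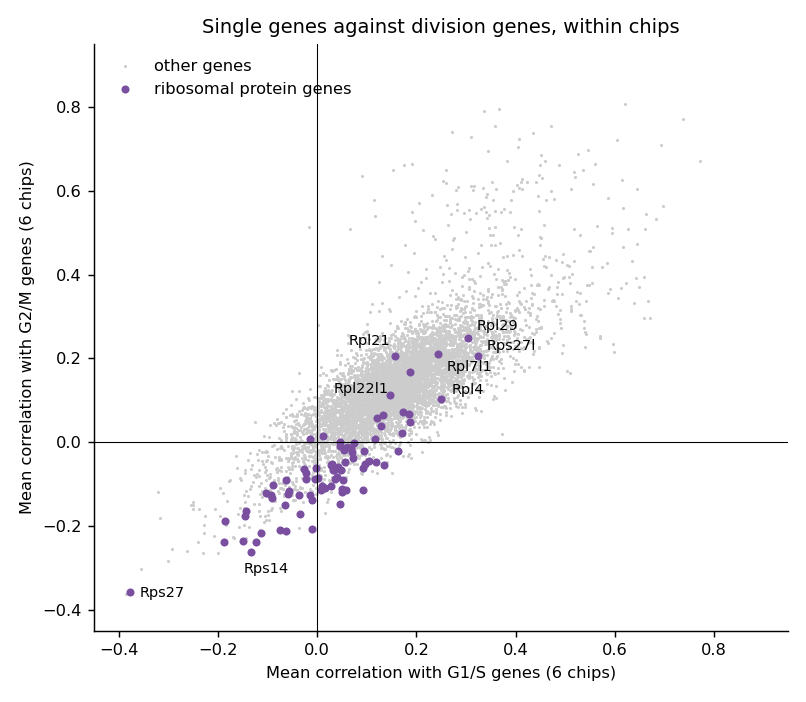
Mean within-chip Spearman correlation over 6 chips with the G1/S score (x axis) and the G2/M score (y axis), for 81 ribosomal protein genes and for other genes. The members lie along the lower edge of the cloud of other genes, with Rps27 at the far lower left (-0.38 and -0.36) and Rps27l among the other genes (0.32 and 0.21).

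Toward the genes of protein synthesis, the share was positive on all 6 chips for each list. The correlation was 0.28 ± 0.19 in Ly6D+ and 0.48 ± 0.07 in TN cells for the 10 elongation genes, 0.18 ± 0.07 in Ly6D+ and 0.38 ± 0.12 in TN cells for the 30 initiation genes, and 0.20 ± 0.13 in Ly6D+ and 0.35 ± 0.09 in TN cells for the 40 ribosome biogenesis genes. The TN means were higher for all 3 lists, but the difference was not tested, and chip values of the 2 populations overlapped for elongation and biogenesis. For initiation, Ly6D+ chip 5 (0.250) and TN chip 3 (0.252) were nearly level. Given genes detected and total reads, the means were 0.35 in Ly6D+ and 0.46 in TN cells for elongation. In that setting they were 0.34 in Ly6D+ and 0.41 in TN cells for initiation, and 0.29 in Ly6D+ and 0.31 in TN cells for biogenesis. Of single genes, positive on all 6 chips were 7 of 10 for elongation, 8 of 30 for initiation and 13 of 39 for biogenesis, where 10.6% of all genes were. For mitochondrial ribosomal proteins it was 10 of 78, a share near that of all genes. Eef1a1, the factor that brings tRNA to the ribosome, had a mean of 0.55, and Btf3 0.35, Eef1b2 0.32 and Naca 0.30. The list of regulators of ribosomal protein genes and of Myc partners gave 0.080 ± 0.08 in Ly6D+ and 0.090 ± 0.12 in TN cells, with 4 of 6 chips positive, and given genes detected and total reads 0.089 in Ly6D+ and -0.027 in TN cells. Of its 12 genes scanned, 1 was positive on all 6 chips: Myc, a regulator of ribosome production, with a mean of 0.23, while the median of the 12 was 0.046.

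The genes closest to the share outside the set included copies of members. Among the 8 non-members with the highest mean were Rpl37rt (0.60), Rps23rg1 (0.55) and Rps19-ps3 (0.54), copies of members, Cand2 (0.56), whose gene overlaps Rpl32, the predicted genes Gm6654, Gm5148 and Gm6525, and Eef1a1. Leaving out copies, predicted genes and overlaps, a choice made after the values were seen, the next included Wdr89 (0.45), the nucleolar chaperone Npm1 (0.44), Hsp90ab1 (0.42), the cytokine Mif (0.38) and Gas5, a non-coding TOP transcript that hosts snoRNAs (0.37). The lowest were Malat1, an abundant RNA retained in the nucleus (-0.37), the lysosomal proteases Ctsh (-0.30) and Ctsb (-0.25), Gm20594 (-0.26), Cep55, of cell abscission (-0.25), Ahnak (-0.25), Actb (-0.24) and Inpp4a (-0.23).

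Against lineage genes, the share was higher with the stem and multipotent list and lower with the dendritic lists. For stem and multipotent genes the correlation was 0.21, 0.19 and 0.057 on Ly6D+ chips 4, 5 and 6, and 0.50, 0.44 and 0.24 on TN chips 1, 2 and 3. All 6 were positive, and each TN chip lay above each Ly6D+ chip, a difference that was not tested. The chips overlapped given genes detected and total reads, at 0.36, 0.17 and 0.046 on Ly6D+ chips 4, 5 and 6, and 0.45, 0.34 and 0.26 on TN chips 1, 2 and 3. Of 6 genes scanned, 3 were positive on all 6 chips, among them Cd34, a progenitor surface protein (mean 0.26), and Kit (0.086). For conventional dendritic genes it was negative on 6 of 6 chips, at -0.092 ± 0.05 in Ly6D+ and -0.22 ± 0.15 in TN cells, and for plasmacytoid dendritic genes on 5 of 6, at -0.19 ± 0.03 in Ly6D+ and -0.15 ± 0.18 in TN cells. Negative on every chip were 1 of the 7 conventional dendritic genes scanned, Cd74 (-0.15), and 3 of the 8 plasmacytoid dendritic genes, among them Irf8 (-0.14), and 0 of either list were positive.

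Early lymphoid genes gave 0.028 ± 0.14 in Ly6D+ and 0.23 ± 0.25 in TN cells, with 4 of 6 chips positive, and B-lineage genes 0.0083 ± 0.06 in Ly6D+ and 0.095 ± 0.07 in TN cells. Myeloid genes lay at -0.0076 ± 0.16 in Ly6D+ and 0.00046 ± 0.10 in TN cells. Few single genes of these lists kept 1 sign. Positive on all 6 chips were 2 of the 13 early lymphoid genes scanned, among them Dntt, the lymphoid terminal transferase (mean 0.32), 0 of 9 B-lineage genes, and 1 of 8 myeloid genes, Mpo, the myeloid peroxidase (mean 0.23). Negative on all 6 were 0 early lymphoid, 1 B-lineage and 1 myeloid gene. Ly6d itself, Ebf1, Flt3 and Il7r had chips of either sign. Of the members, 3 were positive with the early lymphoid score on all chips (Rps19, Rpl22 and Rpl7a), where 9.12% of all genes were, and 6 were negative with the conventional dendritic score (among them Rpl35, Rpl10a, Rpl12, Rpl24 and Rpl17), where 1.8% of all genes were.

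**Figure D5:**
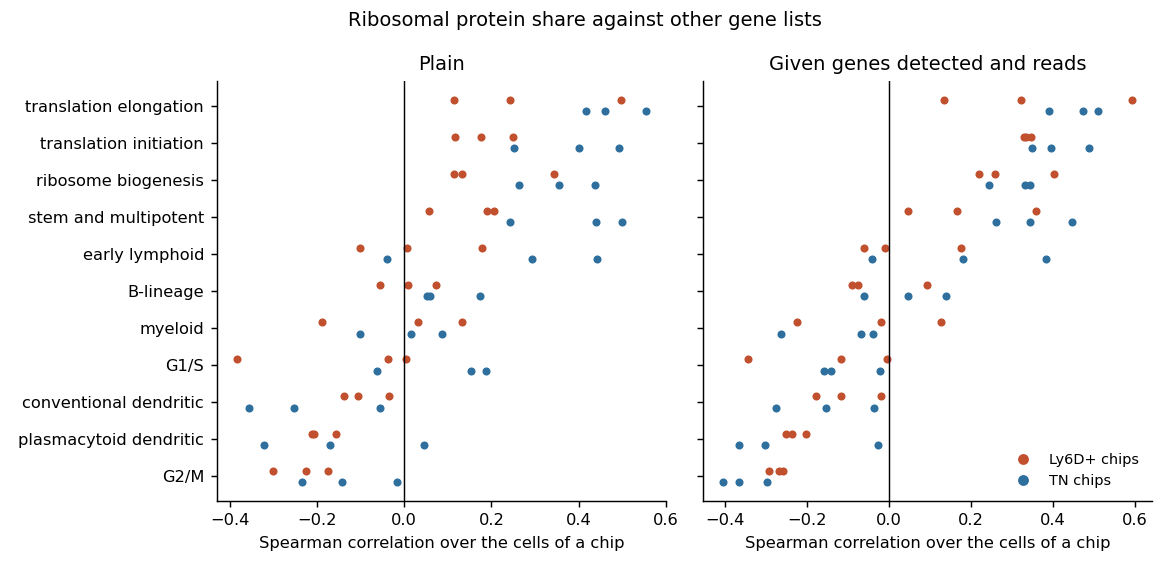
Spearman correlation over the cells of a chip between the ribosomal protein share and the score of each gene list (rows), with 1 point per chip, plain (left) and given genes detected and total reads (right). Elongation, initiation, biogenesis and stem lists lie right of 0 on every chip and the G2/M list left of 0 on every chip in both panels.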

How the data were processed

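The authors deposited raw read counts per gene and cell, with a gene length in bases for each gene. The submitters' processing notes name mm9 and R 3.2.0, and no source used here gives the aligner, counter, annotation, strand setting or doublet treatment. Per the labels' protocols, cDNA came from SMARTer kits on C1 chips and libraries from Nextera XT. Entrez identifiers were named by RefSeq (GRCm38.p6) for 23334 of 23427 genes. No further cell was left out, and no doublet caller was run.

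Counts were summed per chip for a quasi-likelihood fit (R 4.3.3, edgeR 4.0.16, TMM, filterByExpr, Benjamini-Hochberg over all genes, threshold 0.05), beside DESeq2 1.42.0 and limma 3.58.1. CPM between populations use TMM-scaled library sizes. CPM per kb use chip means of cell CPM, which weigh cells equally. Correlations over cells were computed with scipy 1.17.1 within each chip and carry no p-value. Promoters were read from RefSeq by Entrez identifier, and 50-base stretches from GENCODE vM21 transcripts, with no coordinates carried between builds. The steps were tested on simulated data: over 3 simulations of the chip sums with 11797 genes, edgeR recovered 0.667% of 2-fold and 15.3% of 4-fold changes. False calls averaged 3 per simulation. Alternatives were another tool, scaling or filter, thinning to 200000 reads, leaving out 23 cells under 1500 detected genes, partial and Pearson correlations, and each chip left out.

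Named members were the extremes by fold change (6 each way) and by level per kb (8 each way), paralogs with their parents and 10 chosen for their roles. Named other genes were the 8 most and least correlated with the share, and fixed markers. A few genes that these rules pick out are not reported here. The members, lists and rules were chosen with earlier results of these data known.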

Additional observations from a re-analysis of the deposited data

Results flagged for a closer look

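For 5 ribosomal protein genes the correlation with a division score had 1 sign on all 3 Ly6D+ chips and the other sign on all 3 TN chips, out of 81 genes looked at for 3 measures. There were 3 such members for G2/M (3.7%, against 2.03% of 6859 genes), 2 for G1/S (2.47%, against 1.47% of 6859 genes) and 0 for the share (against 2.66% of 6878 genes), so these are few members, near the share among all genes. The difference between the populations was not tested. Against G2/M genes, Rpl22 had a mean of -0.13 in Ly6D+ and 0.090 in TN cells, Rpl31 -0.099 in Ly6D+ and 0.17 in TN cells, and the X-linked Rps4x -0.14 in Ly6D+ and 0.096 in TN cells. Against G1/S genes, Rpl19 had -0.18 in Ly6D+ and 0.16 in TN cells, and Rpl34 -0.11 in Ly6D+ and 0.086 in TN cells. Given genes detected and total reads, Rpl22, Rpl31 and Rps4x were negative with G2/M in both populations (means -0.22, -0.12 and -0.16 in Ly6D+, and -0.084, -0.086 and -0.13 in TN cells). In the same setting the means with G1/S were -0.19 in Ly6D+ and 0.067 in TN cells for Rpl19, with 1 of the 3 TN chips negative, and -0.13 in Ly6D+ and -0.061 in TN cells for Rpl34, so that none of the 5 kept opposite signs on all chips.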

How the results depend on the processing

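No member was called under any of the 14 settings of the fit. The number of all genes called was 399 with DESeq2 and 326 with limma-trend, and between 2 and 23 with 1 chip left out. Members whose chips did not overlap numbered 14 by library size alone, 12 with limma-trend and between 22 and 36 with a chip left out. The counts over all genes moved as well. By library size, 13 of 82 members lay higher in Ly6D+ and 1 lower, beside 833 and 1001 of 11797 genes. With limma-trend it was 12 and 0, beside 1389 and 773 of 11797. Without Ly6D+ chip 6 it was 20 and 2, beside 1607 and 1644 of 12294. Without Ly6D+ chip 5 it was 34 and 2, beside 1524 and 1720 of 12240. In the main fit it was 23 and 1, beside 901 and 914 of 11797. Without TN chip 2 it was 24 and 2, beside 1459 and 1475 of 12183, and without TN chip 3 34 and 1, beside 1460 and 1591 of 12295. Over both directions, the members' share was near or below that of all genes by library size, with limma-trend and without Ly6D+ chip 6. It was above in the other settings given here. For higher in Ly6D+ alone it was above in each of them, though members move together from chip to chip. The difference in share was 1.15 percentage points for the share of reads divided by gene length, a larger share, and for the share of reads between 0.090 and 0.473 with a chip left out. Given genes detected and total reads, the share had a correlation of -0.36 with G2/M, -0.11 with G1/S and -0.12 with myeloid genes in TN cells, and of -0.23 with plasmacytoid dendritic and 0.34 with initiation genes in Ly6D+ cells. Pearson's r was -0.13 in Ly6D+ and -0.047 in TN cells for B-lineage genes, and in Ly6D+ cells -0.20 for conventional dendritic and 0.27 for initiation genes. Without cells under 1500 genes, plasmacytoid dendritic genes had -0.24 in Ly6D+ cells. Given genes detected and total reads, 53 members were negative and 0 positive with G2/M, and 9 negative and 0 positive with G1/S. This setting, and CPM over non-member reads, were chosen after seeing the data. The other 131 values for the comparisons moved by less than the spread between chips or, for counts, less than 1.5 times. Signs of single genes turned for Rpl3l (0.078 with limma-trend, 0.34 without cells under 1500 genes), Rpl21 (0.35 with limma-trend), Rpl22l1 (0.33 with limma-trend) and Rpl7l1 (-0.17 with limma-trend, -0.0067 without cells under 1500 genes). With a chip left out, log2 fold changes ranged from -3.60 to 5.20 for Rpl3l, -0.66 to 0.24 for Rps2, -0.12 to 0.073 for Rpl5, -0.0076 to 0.19 for Rps6, -0.093 to 0.052 for Rpl22l1 and -0.11 to 0.18 for Rpl7l1. The causes were not tested. No paired analysis was possible because the populations share no chip. Reads without molecular identifiers limit the precision of low members, and intervals and floors cover counting error only where they rest on counts.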
